A study of Mus musculus with 5 samples.

Results

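The phagocyte NADPH oxidase was followed through 5 genes that encode its parts, Cybb, Cyba, Ncf1, Ncf4 and Rac2. They were chosen by name and matched to the array through the platform annotation, and each of the 5 had 1 probe set among 19505 named genes. Tumours were subcutaneous melanomas of the mouse line B16.F10, here carrying luciferase and green fluorescent protein, in wild-type C57BL/6 mice aged 10 weeks. In the RG7112 group, 3 tumours came from mice that received anti-PD-1, an antibody against an inhibitory receptor of T cells, together with oral RG7112, a small molecule that keeps MDM2 from binding p53. In the vehicle group, 2 tumours came from mice that received the same anti-PD-1 with corn oil and 5% DMSO. A DMSO content of 5% is recorded for the samples of both groups. Anti-PD-1, given on days 1, 4 and 8, was thus common to both groups, and no tumour without it was analysed here. Tumours were removed on day 13 and whole-tumour RNA was measured on 1 array per sample. The labels do not say that each sample is a separate mouse, so p-values measure the spread between these samples. RG7112 tumours are numbered 1, 2 and 3 and vehicle tumours 3 and 4, as in the labels.

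The phagocyte oxidase is an enzyme of neutrophils, monocytes and macrophages that moves electrons from NADPH across a membrane to oxygen and so makes superoxide, the source of the oxidative burst. Its membrane part is a pair of proteins, the catalytic subunit gp91phox (Cybb, also called NOX2) and its partner p22phox (Cyba). When the cell is triggered, cytosolic proteins such as p47phox (Ncf1) and p40phox (Ncf4) move to the membrane with the GTPase Rac2, and the enzyme becomes active. Loss of Cybb, Cyba, Ncf1 or Ncf4 in people causes chronic granulomatous disease, in which phagocytes fail to kill some microbes.

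The values are log2 signals with array medians from 5.76 to 5.81 and lower quartiles from 4.02 to 4.13. RG7112 replicate 1 had the lowest lower quartile and the highest upper quartile (7.85) of the 5 arrays. Melanocyte markers averaged 11.5 ± 0.05 (SD, n = 3) in RG7112 tumours and 11.4 ± 0.07 (SD, n = 2) in vehicle tumours, so transcripts of the labelled tumour were bright in both groups. Of these markers Gpr143 and Mlana had the smallest unadjusted p-values, at changes of 0.37 and 0.24, and none of 10 passed. In limma's moderated test with Benjamini-Hochberg adjustment over 22203 probe sets, 1.42% of probe sets were higher with RG7112 at adjusted p under 0.05 and 0.0315% were lower, which is 315 and 7 probe sets. The number called higher was 151 without vehicle replicate 3 and 65 without vehicle replicate 4, fits in which the lone vehicle tumour is assumed to vary like the RG7112 tumours. Values of the groups did not overlap, with RG7112 higher, in 10.8% of probe sets and, with RG7112 lower, in 14% of them. The median change over all probe sets was -0.03. The number of arrays limits the precision, and an exact permutation test over 3 against 2 tumours cannot give a p below 0.1.

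Of the 5 oxidase genes, 2 rose with RG7112, 0 fell and 3 did not pass the test, where 1.42% of all probe sets were called higher. Cybb, the catalytic subunit, rose 4.25-fold and the GTPase gene Rac2 rose 2.06-fold. Ncf1 and Ncf4 were higher by 0.72 and 0.82 on the log2 scale without passing, and Cyba, the partner of Cybb, differed by 0.27. In all 5 genes every RG7112 tumour lay above both vehicle tumours, against 10.8% of all probe sets. The median change of the 5 genes was 0.82. In whole-tumour RNA, a change in the number of cells of a type and a change in the RNA per cell cannot be told apart.

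**Figure D1:**
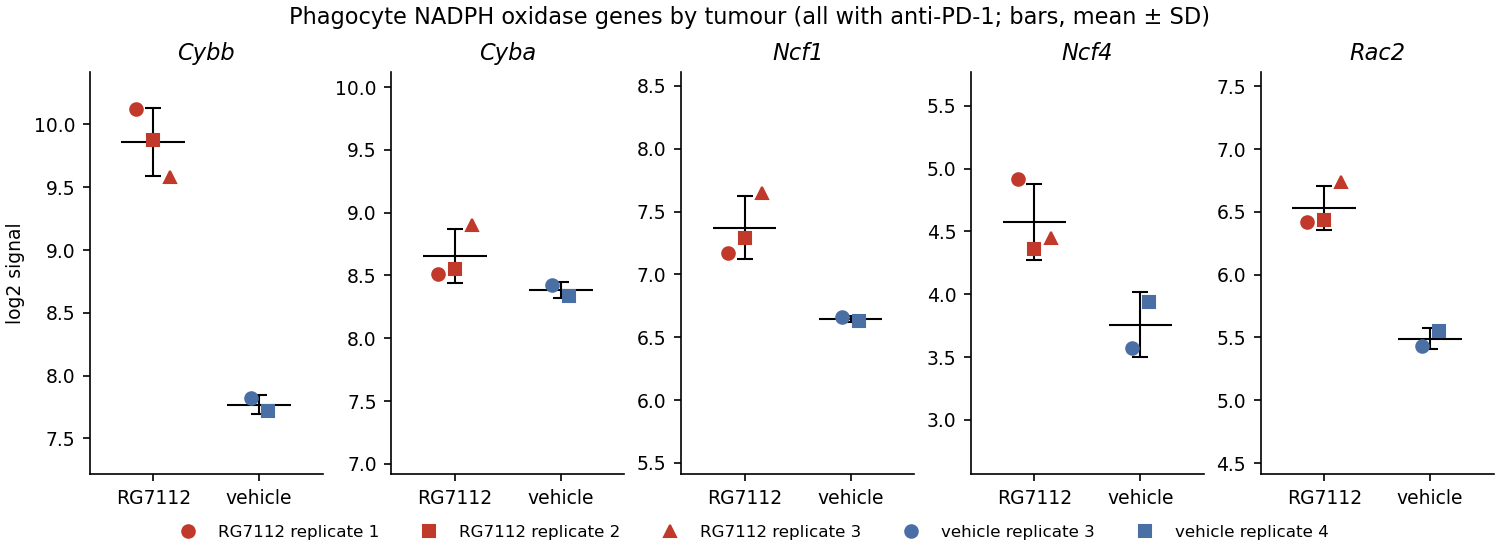
Log2 signal of each oxidase gene (vertical axes, all of the same length in log2 units) in every tumour, RG7112 (red, left) and vehicle (blue, right); horizontal lines are group means and bars are SD (n = 3 RG7112 and 2 vehicle). Cybb showed the widest separation of the 5 genes, 1.76 between the lowest RG7112 tumour and the highest vehicle tumour, and Cyba the narrowest, 0.08.

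Cybb (probe set TC0X00001829.mm.2) had log2 signals of 10.1, 9.87 and 9.58 in RG7112 replicates 1, 2 and 3, against 7.82 and 7.72 in vehicle replicates 3 and 4. The groups were thus far apart and the vehicle tumours close to each other, while RG7112 replicate 1 was the highest of all 5. The means were 9.86 ± 0.27 (SD, n = 3) in RG7112 tumours and 7.77 ± 0.07 (SD, n = 2) in vehicle tumours. The log2 change was 2.09 ± 0.18 (SE), with a limma adjusted p = 0.000353 over all probe sets. The exact permutation test over tumours gave p = 0.1, the smallest it can give. The call was kept whichever tumour was left out, with changes from 1.96 to 2.23 and adjusted p-values from 0.000778 to 0.0245.

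Cyba (probe set TC0800003068.mm.2), whose protein is needed for the stability of the catalytic subunit and is shared with other NOX enzymes, had signals of 8.51, 8.55 and 8.90 in RG7112 replicates 1, 2 and 3, against 8.43 and 8.34 in vehicle replicates 3 and 4. RG7112 replicate 3 stood above the others, and the remaining tumours lay within a narrow band. The log2 change was 0.27 ± 0.17 (SE), with a 95% confidence interval from -0.11 to 0.65 (limma adjusted p = 0.744, exact permutation p = 0.2). A change of the size seen in Cybb lay outside that interval. Without RG7112 replicate 3 the change was 0.15.

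Of the cytosolic subunits, Ncf1 (probe set TC0500003368.mm.2), which organises the assembly, had signals of 7.17, 7.29 and 7.65 in RG7112 replicates 1, 2 and 3, against 6.67 and 6.63 in vehicle replicates 3 and 4. The vehicle tumours were nearly equal and all RG7112 tumours lay higher, with replicate 3 on top. The log2 change was 0.72 ± 0.18 (SE, limma adjusted p = 0.105, 95% confidence interval 0.33 to 1.12). Ncf4 (probe set TC1500000640.mm.2), whose protein binds a phosphoinositide of phagosome membranes, had signals of 4.92, 4.36 and 4.45 in RG7112 replicates 1, 2 and 3, against 3.57 and 3.94 in vehicle replicates 3 and 4. Here RG7112 replicate 1 was the highest, and both vehicle values lay below the lower quartile of their arrays. The log2 change was 0.82 ± 0.20 (SE, limma adjusted p = 0.106, 95% confidence interval 0.37 to 1.27). Ncf4 was below the array median in all 5 tumours, so its signal was dim and its change may be compressed. Both genes gave an exact permutation p = 0.1.

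Rac2 (probe set TC1500001838.mm.2), the Rac GTPase of blood cells that activates the assembled oxidase, had signals of 6.42, 6.44 and 6.74 in RG7112 replicates 1, 2 and 3, against 5.43 and 5.55 in vehicle replicates 3 and 4. The groups were clear of each other by 0.87, which is more than the range of either group, and both vehicle tumours were below their array medians. The means were 6.53 ± 0.18 (SD, n = 3) in RG7112 tumours and 5.49 ± 0.09 (SD, n = 2) in vehicle tumours, and the log2 change was 1.04 ± 0.17 (SE, limma adjusted p = 0.00865, exact permutation p = 0.1). The call was lost without vehicle replicate 3 (adjusted p = 0.159) and without vehicle replicate 4 (adjusted p = 0.121), at changes of 0.98 and 1.10. It was kept without any of the RG7112 tumours.

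The 5 genes did not share 1 order over the tumours. Cybb and Ncf4 were highest in RG7112 replicate 1, and Cyba, Ncf1 and Rac2 were highest in RG7112 replicate 3. For each of the 10 pairs of genes, the log2 signal of one was taken minus that of the other in each tumour. This shows whether the pair changed by different amounts. The SEs of the pairs come from the pooled SD of the tumours and not from limma, so they cannot be set beside the SEs above. Cybb changed more than Cyba by 1.82 ± 0.36 (SE), since the difference between their signals was 1.61, 1.32 and 0.68 in RG7112 replicates 1, 2 and 3, against -0.60 and -0.62 in vehicle replicates 3 and 4. Cybb also changed more than Ncf1 by 1.37 ± 0.39 (SE), than Ncf4 by 1.27 ± 0.23 (SE) and than Rac2 by 1.05 ± 0.34 (SE). Rac2 changed more than Cyba by 0.77 ± 0.08 (SE), and Ncf1 more than Cyba by 0.45 ± 0.04 (SE). In these 2 pairs the difference varied little between tumours of a group, with SDs of 0.04 and 0.05 in RG7112 tumours and 0.15 and 0.04 in vehicle tumours. Rac2 and Ncf4 differed in their change by 0.22 ± 0.32 (SE), and Ncf4 and Ncf1 by 0.10 ± 0.40 (SE). Leaving out 1 tumour at a time put Rac2 minus Ncf4 between 0.060 without RG7112 replicate 3 and 0.45 without RG7112 replicate 1, and Ncf4 minus Ncf1 between -0.18 without RG7112 replicate 1 and 0.30 without RG7112 replicate 3, so that the sign for Ncf4 minus Ncf1 turned. In each pair the gene with the larger change came first, so that every difference above is positive. The groups did not overlap in 7 of the 10 pairs, which share 5 genes and are not independent. Single probe sets did not overlap in 10.8% with RG7112 higher and 14% with RG7112 lower. These shares are no background for differences between 2 genes, and no share over other pairs is given. The exact permutation test gave p from 0.1 to 0.9, with a smallest p of 0.2 after Benjamini-Hochberg adjustment over the 10 pairs. At this number of tumours no pair could pass that test, and no other test of the pairs was run.

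The bases before the start sites are shown because Cybb rose and Cyba did not pass, and they stand beside those of Ncf1, which lay between these in its change. The RefSeq promoter table used, for GRCm38.p6, matched 3 of the 5 genes, not Ncf4 and Rac2. Each line gives 250 bases 5′ to 3′ on the strand of the gene, which is the minus strand for all 3, ending just before the start site. Capitals mark matches, on either strand, to a core of the interferon-stimulated response element (ISRE, a GAAA and another GAAA with any 2 bases between them), to the STAT motif GAS (TTCNNNGAA) or to CCAAT.
Cybb, chrX:9469325-9469574: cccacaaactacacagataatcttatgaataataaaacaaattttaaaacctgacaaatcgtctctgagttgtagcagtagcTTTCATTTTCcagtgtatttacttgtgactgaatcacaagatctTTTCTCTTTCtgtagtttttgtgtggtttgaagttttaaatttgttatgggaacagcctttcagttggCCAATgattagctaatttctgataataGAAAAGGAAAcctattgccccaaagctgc
Cyba, chr8:122432941-122433190: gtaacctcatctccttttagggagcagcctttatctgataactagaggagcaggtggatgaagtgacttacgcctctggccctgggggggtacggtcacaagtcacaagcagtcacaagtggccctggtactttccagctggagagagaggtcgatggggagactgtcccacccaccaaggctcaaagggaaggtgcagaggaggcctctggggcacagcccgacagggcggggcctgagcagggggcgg
Ncf1, chr5:134229626-134229875: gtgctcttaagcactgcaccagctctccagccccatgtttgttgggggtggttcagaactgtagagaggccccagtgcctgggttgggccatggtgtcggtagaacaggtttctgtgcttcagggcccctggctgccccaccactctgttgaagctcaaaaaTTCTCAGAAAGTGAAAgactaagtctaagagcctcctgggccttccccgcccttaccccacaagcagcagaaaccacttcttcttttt
Over the whole window of 300 bases, which adds 50 bases after the start, an ETS-IRF composite motif (a GGAA and a GAAA with any 2 bases between them, on either strand) and the PU.1-type motif GAGGAA were searched as well. The Cybb window held a composite match at the start site, in capitals here, and the PU.1-type match overlaps its end.
Cybb, chrX:9469302-9469331: aagctgctgtTTTCATTTCCtcatcagaag

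Cybb thus held ISRE-core matches that begin 168, 124 and 29 bases before the start and a CCAAT 56 bases before it, while its composite match began 4 bases after the start. Ncf1 held a GAS match that begins 88 bases before the start and shares letters with an ISRE-core match at 82. The Cyba window held no match to any of the 5 motifs. Of all 32851 promoter windows of the same length in the table, 3.44% held the ISRE core, 2.72% the composite motif, 8.30% the GAS motif, 28.3% the PU.1-type motif and 37.4% a CCAAT. A match is a description of letters and does not show that a factor binds there, and a window with no match says nothing about the factor.

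Of the genes known to control transcription of oxidase subunits, 8 of 9 listed had a named probe set. Among these 2 rose, 0 fell and 6 did not pass, with a median change of 0.24, against 1.42% of all probe sets called higher. Spi1, which encodes the myeloid ETS factor PU.1, had signals of 10.7, 10.5 and 10.0 in RG7112 replicates 1, 2 and 3. In vehicle replicates 3 and 4 they were 8.84 and 8.88. The log2 change of Spi1 was 1.57 ± 0.20 (SE, limma adjusted p = 0.00220). Irf1, an interferon-induced factor, rose by 1.22 ± 0.20 (SE, limma adjusted p = 0.00890). Over RG7112 tumours Spi1 and Irf1 had the same order as Cybb, as did Pik3cg and Dock2, which are named below. Genes below that did not pass, such as Rap1a, Rac1, Me1 and Gpx3, had this order too, so it was not particular to regulators of the oxidase. The vehicle tumours of Spi1 were in the opposite order to those of Cybb. With vehicle replicate 3 left out Spi1 had adjusted p = 0.0512, and with vehicle replicate 4 left out Spi1 had 0.0730 and Irf1 had 0.191, so these calls were lost.

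The other measured parts and partners of the phagocyte enzyme did not pass. Rap1a, a small GTPase found with the membrane subunits, had signals of 8.76, 8.61 and 8.57 in RG7112 replicates 1, 2 and 3, against 8.28 and 8.51 in vehicle replicates 3 and 4, a change of 0.25 ± 0.16 (SE, limma adjusted p = 0.750). Cybc1, a chaperone needed to make the Cybb and Cyba proteins, lay between 7.79 and 7.81 in RG7112 tumours, against 7.80 and 7.26 in vehicle replicates 3 and 4. Its change of 0.27 ± 0.18 (SE, limma adjusted p = 0.760) rested on vehicle replicate 4, since without that tumour it was 0.00042. Rac1, the widely expressed relative of Rac2 that can serve the oxidase in macrophages, was bright at 11.9 ± 0.06 (SD, n = 3) in RG7112 tumours and 12.0 ± 0.12 (SD, n = 2) in vehicle tumours, a change of -0.11 ± 0.16 (SE, limma adjusted p = 0.915). Hvcn1, the proton channel that balances the charge moved by the oxidase, differed by 0.09 ± 0.20 (SE, limma adjusted p = 0.952). The list of 4 measured genes had a median change of 0.17.

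None of 7 measured genes of other NOX and DUOX enzymes passed, with changes from -0.12 to 0.14. Nox3, an oxidase of the inner ear, and Nox1, the oxidase of colon epithelium, had the smallest unadjusted p-values, at changes of 0.14 ± 0.17 (SE, limma adjusted p = 0.897) and -0.12 ± 0.19 (SE, limma adjusted p = 0.928). Of these genes 5 were below the array median in all 5 tumours, so little could be measured of them. Both signs turned without vehicle replicate 3, to -0.02 for Nox3 and 0.16 for Nox1.

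**Figure D2:**
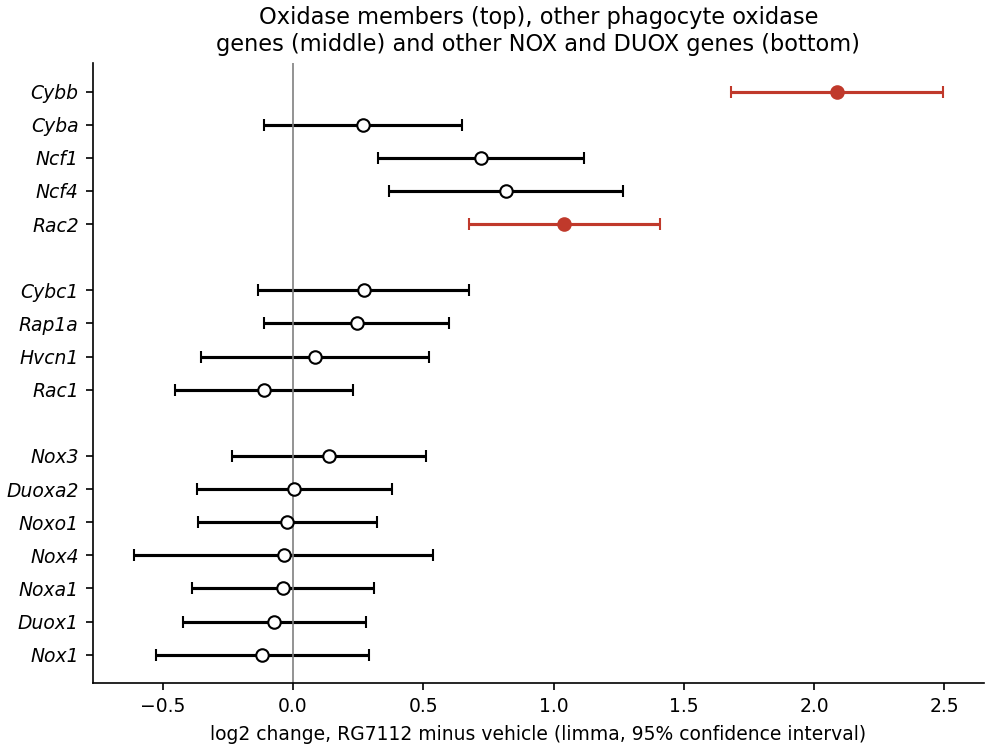
Log2 change, RG7112 minus vehicle, with its 95% confidence interval from limma (horizontal axis), for the 5 oxidase genes, 4 other phagocyte oxidase genes and 7 genes of other NOX and DUOX enzymes; filled red points have adjusted p under 0.05. Cybb at 2.09 and Rac2 at 1.04 are the called genes, and the lower blocks run from -0.12 to 0.27.

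Genes that carry signals to the oxidase moved in part. Of 16 measured upstream regulators 5 rose, 0 fell and 11 did not pass, with a median change of 0.28, against 1.42% of all probe sets called higher. Vav1, an exchange factor that loads Rac with GTP in blood cells, rose by 1.28 ± 0.22 (SE, limma adjusted p = 0.0119). Dock2, another exchange factor for Rac, rose by 1.19 ± 0.19 (SE, limma adjusted p = 0.00738). Pik3cg, the catalytic subunit of a phosphoinositide kinase downstream of chemoattractant receptors, rose by 1.27 ± 0.18 (SE, limma adjusted p = 0.00497). Pla2g4a, the cytosolic phospholipase that releases arachidonic acid, rose by 1.14 ± 0.19 (SE, limma adjusted p = 0.0111). The fifth was the protein kinase C gene Prkcb, named after its value was seen, with 1.01 ± 0.19 (SE, limma adjusted p = 0.0248), whose kinase can phosphorylate p47phox. Of the 5, 0 were called without vehicle replicate 4, 1 without vehicle replicate 3 and 2 without RG7112 replicate 3.

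The supply of NADPH and the removal of its oxygen products showed no called gene. Of 6 measured NADPH-producing genes none passed, with a median change of 0.02, and the malic enzyme Me1 differed by -0.26 ± 0.16 (SE, limma adjusted p = 0.729). Pgls of the pentose phosphate pathway differed by -0.20 ± 0.18 (SE, limma adjusted p = 0.847), and by 0.05 without vehicle replicate 3. Of 20 measured antioxidant genes none passed, with a median change of 0.08. Those with the smallest unadjusted p-values were the thioredoxin reductase Txnrd1, at 0.35 ± 0.16 (SE, limma adjusted p = 0.566), and the glutathione peroxidase Gpx3, at 0.32 ± 0.16 (SE, limma adjusted p = 0.645).

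Other genes of microbial killing by phagocytes rose in part. Of 13 measured genes 3 rose, 0 fell and 10 did not pass, against 1.42% of all probe sets called higher. The median change of these genes was 0.25. Slc11a1, a metal transporter of the phagosome membrane, had signals of 9.19, 9.00 and 9.38 in RG7112 replicates 1, 2 and 3, against 7.81 and 7.50 in vehicle replicates 3 and 4, and rose by 1.54 ± 0.18 (SE, limma adjusted p = 0.00122). Acod1, the enzyme that makes itaconate in activated macrophages, rose by 1.44 ± 0.17 (SE, limma adjusted p = 0.00122). Nos2, the inducible nitric oxide synthase, rose by 0.80 ± 0.16 (SE, limma adjusted p = 0.0315), although all 5 of its values were below the array median. Without vehicle replicate 4 none of the 3 was called (adjusted p = 0.0597 for Slc11a1, 0.0570 for Acod1 and 0.178 for Nos2). Nos2 was not called when any 1 of the 5 tumours was left out, with adjusted p-values from 0.0689 to 0.441, or with an intensity trend in the variance (adjusted p = 0.0690).

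Markers of the cells that carry the oxidase were measured in the same tumours. Of 16 measured macrophage and monocyte markers 9 rose, 0 fell and 7 did not pass, against 1.42% of all probe sets called higher. The median change of these markers was 1.22. Aif1, an actin-binding protein of macrophages, changed by 2.57 ± 0.20 (SE) and was the only 1 of the 16 with a larger change than Cybb. Adgre1, an adhesion receptor gene of mouse macrophages, changed by 1.58 ± 0.18 (SE), Ly6c2 of inflammatory monocytes by 2.03 ± 0.26 (SE) and the Fc receptor gene Fcgr1 by 1.34 ± 0.17 (SE). The summed linear signal of all 16 markers ran from 3821 to 4670 in RG7112 tumours, against 1539 to 2066 in vehicle tumours. Without vehicle replicate 4 only 1 of the 16 was called. Of 10 pan-leukocyte markers 7 rose, 0 fell and 3 did not pass, with a summed signal from 2247 to 2423 in RG7112 tumours, against 928 to 1092 in vehicle tumours. The phosphatase gene Ptprc, which encodes CD45, had signals of 8.75, 8.75 and 8.12 in RG7112 replicates 1, 2 and 3, against 6.62 and 6.59 in vehicle replicates 3 and 4, a change of 1.93 ± 0.21 (SE). Lcp2, Laptm5 and Itgb2, all of blood cells, changed by 1.88, 1.41 and 1.10. The 7 calls became 4 without vehicle replicate 3 and 3 without vehicle replicate 4. The part of these markers in the change of the oxidase genes was not tested.

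Neutrophils, which are rich in the oxidase, gave no called marker. Of 13 measured neutrophil markers 0 rose and 0 fell, with a median change of -0.04, and their summed signal ran from 326 to 344 in RG7112 tumours, against 299 to 310 in vehicle tumours. Below the array median in all 5 tumours were 11 of the 13, and 4 of them were below the lower quartile in all 5. Csf3r, the receptor for the neutrophil growth factor, had the smallest unadjusted p, at 0.62 ± 0.17 (SE, limma adjusted p = 0.163), and Lcn2 differed by 0.56 ± 0.30 (SE, limma adjusted p = 0.661). Csf3r was at 0.41 without vehicle replicate 3, and Lcn2 was at 0.19 without RG7112 replicate 1. Eosinophil markers (5 measured) and B cell markers (6 measured), from cells that also use the oxidase, had 0 called and medians of -0.23 and -0.15. Il5ra and Epx of eosinophils differed by -0.34 and -0.29, and Cd22 and Blk of B cells by 0.37 and -0.40. Without RG7112 replicate 1 Il5ra was at -0.14 and Blk at -0.17, and Epx was at -0.54 without vehicle replicate 3 and -0.035 without vehicle replicate 4. Of 9 dendritic cell markers 1 rose, against 1.42% of all probe sets called higher. It was the integrin gene Itgax (0.98 ± 0.20, limma adjusted p = 0.0376), which macrophages express too. Of 11 T cell markers 1 rose, Cd8b1 (0.90 ± 0.18, limma adjusted p = 0.0314), and of 6 NK cell markers 0 rose, with Prf1 at 0.75 ± 0.20 (limma adjusted p = 0.148) and Gzma at 0.35 ± 0.24 (limma adjusted p = 0.772). Of 7 endothelial markers 1 rose, Kdr (1.01 ± 0.19, limma adjusted p = 0.0203). All 7 of these endothelial markers were higher with no overlap between the groups, as were all 5 oxidase genes, against 10.8% of all probe sets, and their median change was 0.63. Itgax, Cd8b1 and Kdr each lost the call when 1 of the vehicle tumours was left out, whichever it was, and also when 1 or more of the RG7112 tumours was, and Prf1 was called without RG7112 replicate 1 (adjusted p = 0.0206). The sign of Gzma turned without vehicle replicate 4, to -0.03.

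**Figure D3:**
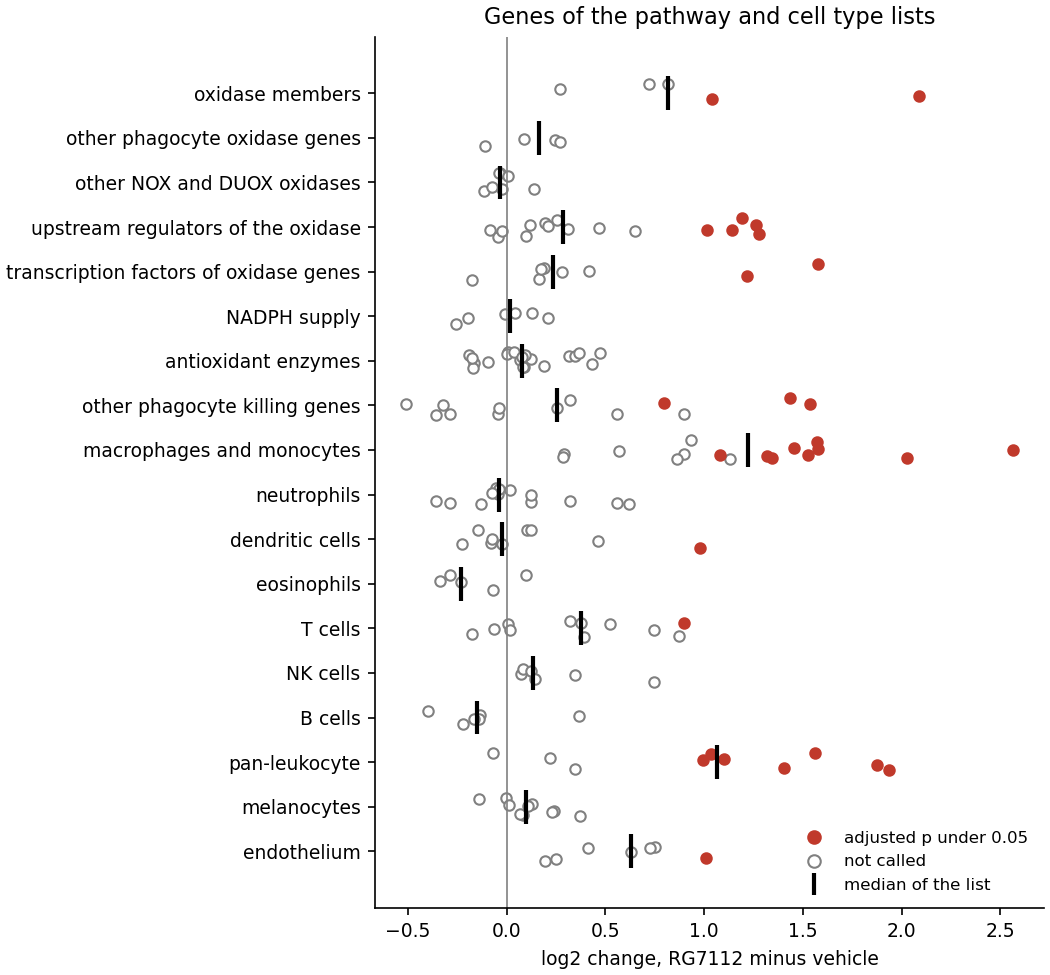
Log2 change, RG7112 minus vehicle (horizontal axis), of every measured gene of the 8 pathway lists and 10 cell type lists; red points have adjusted p under 0.05, open points do not, and black bars are list medians. Medians were 0.82 for the oxidase genes, 1.22 for macrophage and monocyte markers and -0.04 for neutrophil markers, and points were spread vertically at random within a list for visibility.

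Set against the mean log2 signal of the 16 macrophage and monocyte markers in the same tumour, the oxidase genes went different ways. The offset between a gene and the markers compares different probes and has no meaning of its own, so its change between groups is what is read. Cybb was higher than this marker level by 2.46, 2.61 and 2.17 in RG7112 replicates 1, 2 and 3. In vehicle replicates 3 and 4 it was higher by 1.44 and 1.64. Cybb thus changed by 0.87 ± 0.19 (SE) more than the mean of the markers. Single markers changed by 0.29 to 2.57, a range that holds the change of Cybb, and the SE leaves out this spread. Among the 16, 2 were below the array median in all 5 tumours, which may compress their mean change. Cyba was higher than the marker level by 0.84, 1.29 and 1.48 in RG7112 replicates 1, 2 and 3. In vehicle replicates 3 and 4 this was 2.04 and 2.26, a change of -0.94 ± 0.26 (SE) relative to the markers. Cyba itself changed by 0.27 without passing and the mean of the markers by 1.21. The relative value of Cyba is thus mainly the rise of the markers, and which cells gave the Cyba signal was not tested. The groups did not overlap for Cybb, Cyba and Ncf1, and no share over other genes is given beside this. For Cybb and Cyba the exact permutation test gave p = 0.1, or 0.25 after Benjamini-Hochberg adjustment over the 5 genes. The relative change was -0.49 ± 0.30 (SE) for Ncf1, -0.40 ± 0.27 (SE) for Ncf4 and -0.17 ± 0.27 (SE) for Rac2, with exact permutation p-values of 0.2, 0.2 and 0.6. The values of all 5 genes shifted when single tumours were left out. Cybb ran from 0.77 to 1.00 and Cyba from -1.08 to -0.76. Ncf1 was at -0.28 without RG7112 replicate 1 and -0.65 without RG7112 replicate 3. Ncf4 was at -0.73 without vehicle replicate 3 and -0.060 without vehicle replicate 4. Rac2 was at -0.0090 without RG7112 replicate 1, -0.29 without RG7112 replicate 3, -0.39 without vehicle replicate 3 and 0.042 without vehicle replicate 4, so its sign was not settled. Against the 10 pan-leukocyte markers the changes were 1.05 ± 0.20 (SE) for Cybb, -0.77 ± 0.16 (SE) for Cyba and 0.0014 ± 0.16 (SE) for Rac2. The mean change of Rac2 thus matched that of the pan-leukocyte level, with an interval that this number of tumours leaves wide. Single tumours varied, since Rac2 minus this level was -0.85, -0.81 and -0.54 in RG7112 replicates 1, 2 and 3. In vehicle replicates 3 and 4 it was -0.86 and -0.61. Single pan-leukocyte markers changed by -0.07 to 1.93, a spread that the SE leaves out.

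**Figure D4:**
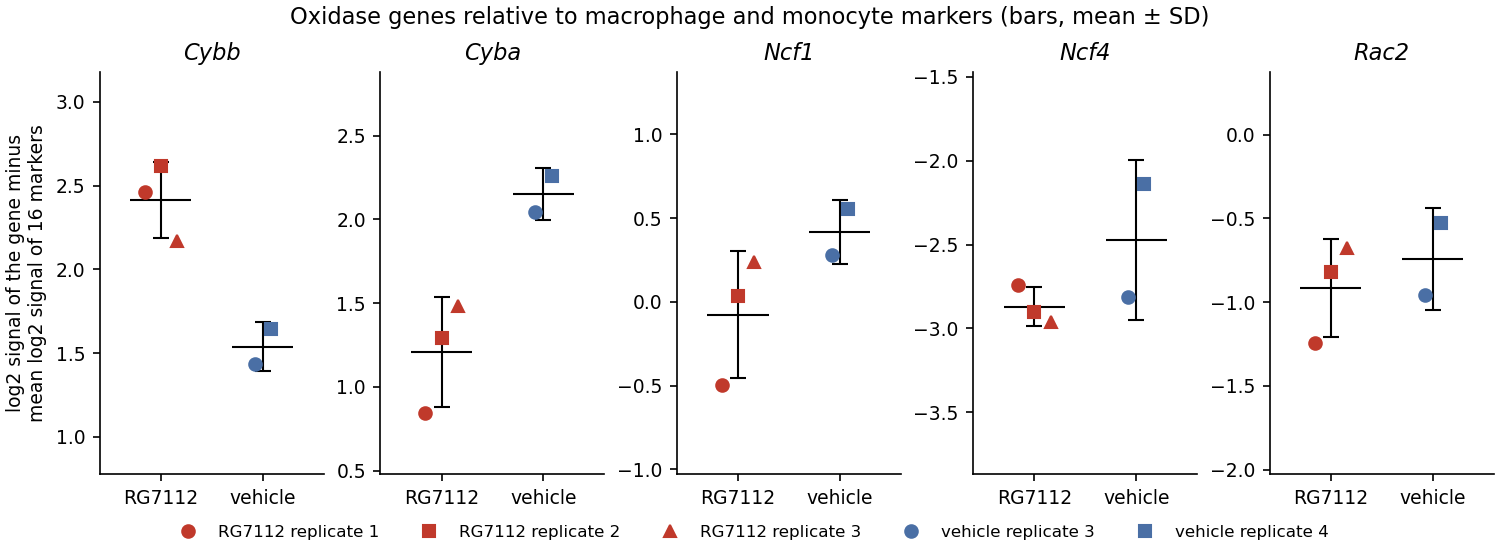
Log2 signal of each oxidase gene minus the mean log2 signal of 16 macrophage and monocyte markers in the same tumour (vertical axes, all of the same length in log2 units), RG7112 (red, left) and vehicle (blue, right); lines are group means and bars are SD (n = 3 RG7112 and 2 vehicle). Cybb lies higher in RG7112 tumours by 0.87 and Cyba lower by 0.94, and Rac2 and Ncf4 overlap between the groups.

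The genes with the nearest profiles were found by the root mean square difference between log2 values centred on their mean over the 5 tumours, among 18451 named genes. For Cybb these were Sirpb1c, a signal-regulatory protein gene (0.11), the guanylate-binding protein gene Gbp9 (0.12) and Plbd1, a phospholipase B-like gene (0.13), which changed by 2.07, 1.91 and 2.14. For Rac2 they were H2-DMb2, a chain of the class II peptide loader (0.08), Rasgef1b (0.10) and Tapbpl (0.10), which changed by 1.05, 0.90 and 0.93. For Ncf1 they were Rab7b (0.06), Txnip (0.07) and B4galnt1 (0.07), for Ncf4 Vwa1 (0.04), Bst2 (0.06) and Nxpe4 (0.07), and for Cyba Mvp (0.03), Cldn4 (0.03) and Sh3bp5l (0.04). With 5 tumours many genes lie this close, most of all to a gene that changed little, so nearness describes these values only. Between the oxidase genes, Ncf1 and Rac2 were the nearest pair (0.17) and Cybb and Cyba the farthest (0.94).

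Ncf4 and Rac2 lie on the same chromosome, 15, with 10 protein-coding genes between them in RefSeq's gene table, of which 9 were measured. Of these 1 rose, 0 fell and 8 did not pass, with changes from -0.30 to 0.95, against 1.42% of all probe sets called higher. The called gene was Il2rb, a receptor chain for interleukins of T and NK cells, with 0.95 ± 0.19 (SE, limma adjusted p = 0.0357), and Csf2rb, the shared receptor chain for growth factors of myeloid cells, differed by 0.67 ± 0.21 (SE, limma adjusted p = 0.267). Both were named after their values were seen. Il2rb was called without RG7112 replicate 2 but not without any other 1 of the tumours, with adjusted p up to 0.467. The 5 oxidase genes lay on chromosomes X, 8, 5, 15 and 15.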

How the data were processed

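RNA from 5 whole tumours was measured on Affymetrix Clariom S arrays. Per the submitters' processing notes, the authors used oligo and RMA, with versions not given in the sources used. The deposited values are log2 signals from 2.53 to 13.3, and within this report they were used with no further scaling. RMA comprises background correction, quantile normalization and probe summary, and changes of dim probe sets may be compressed in its values, which was not tested here. Of 22203 probe sets, 19572 had 1 gene symbol, 2631 had none and 0 had several, and for genes with several the probe set with the highest mean was taken. Lists of 183 genes, 165 of them measured, were written by hand, and some listed genes are not reported here.

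limma 3.58.1 in R 4.3.3 fitted RG7112 against vehicle over all probe sets with eBayes (3 residual and 7.92 prior degrees of freedom), adjusted by Benjamini-Hochberg, and a call is adjusted p under 0.05. Single values were also compared by an exact two-sided permutation test over all 10 splits of the tumours, whose smallest p is 0.1. SEs of differences between 2 genes, or between a gene and markers, came from the pooled SD of the tumours and not from limma. The fit was run on simulated data with variances drawn from its own fitted prior, which cannot test whether these tumours meet its assumptions. The members, lists and tests were chosen with earlier results of these data known. Named were the members, the measured partners of the enzyme, up to 4 called genes of each other list or else the 2 with the smallest p, and the 3 nearest profiles of each member, and exceptions are stated as such. Alternatives were the eBayes options, array weights, quantile and cyclic loess normalization, a filter on dim probe sets (40th percentile), 1 probe set per gene, other thresholds and leaving out each tumour. Array correlations were 0.987 to 0.992 within groups and 0.983 to 0.988 between them, and no 2 arrays were identical. No scan date or batch was in the files used here.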

Additional observations from a re-analysis of the deposited data

How the results depend on the processing

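Cybb and Rac2 were called, and Cyba, Ncf1 and Ncf4 were not, under every alternative that gave a value, other than leaving out a tumour. The filter on dim probe sets removed Ncf4, which therefore has no value there. No paired analysis was possible because the labels give no pairing of tumours between the groups. The alternative of another probe set per oxidase gene could give no value, since each has 1. Over all probe sets, 7 were called lower, which became 16 with array weights, 4 with cyclic loess, 2 without dim probe sets and 29 at adjusted p under 0.10. Endothelial markers called higher, 1 of 7, became 2 with array weights and 2 at adjusted p under 0.10. Rab7b and Bst2, named for their profiles, were called under 4 and 6 alternatives, and Rab7b also without RG7112 replicate 1. The cause was not tested in any of these.

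Leaving out each tumour in turn gave 65 to 268 probe sets called higher and 0 to 5 called lower, and 1 to 2 of the 5 oxidase genes called. The numbers of called genes were 0 to 5 for upstream regulators, 0 to 2 for transcription factors, 0 to 2 for other killing genes, 1 to 11 for macrophages and monocytes, 3 to 7 for pan-leukocyte markers, 0 to 1 for dendritic cells, 0 for T cells and 0 to 1 for endothelium. The range of the log2 change was 0.94 to 1.10 for Rac2. Relative to the macrophage markers Ncf4 lay from -0.73 to -0.060, and the change of Rac2 exceeded that of Cyba by 0.67 to 0.88. Signs turned in 5 genes that were not called, over ranges of -0.076 to 0.25 for Hvcn1, -0.023 to 0.30 for Nox3, -0.39 to 0.16 for Nox1, -0.44 to 0.046 for Pgls and -0.033 to 0.72 for Gzma. Ncf4, most NOX genes and most neutrophil markers were dim, which limits what could be measured of them.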
